A study of Mus musculus with 12 samples.

Results

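The nuclear pore complex genes described here are 31 gene symbols chosen by name, covering the scaffold, the channel, the membrane ring, the cytoplasmic face and the nuclear basket of the pore. Of these symbols, 30 were found in the FPKM table of 29838 genes, and they took up 31 rows. Nup58, a newer name of Nupl1 in RefSeq, was the symbol that was not found, while Nupl1 stood in the table with 2 identifiers. The second Nupl1 row (ENSMUSG00000063895) lay between 0 and 0.0964 FPKM in all libraries and did not pass the filter on low values. The remaining 30 rows passed it and were tested among 12994 genes, and "members" below means these 30.

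The nuclear pore complex is the channel through which proteins and RNA pass between nucleus and cytoplasm. Its proteins, the nucleoporins, form rings that are built from a few subcomplexes repeated around a central axis. The outer rings are made of the Y complex, the inner ring anchors the channel nucleoporins, and flexible stretches rich in phenylalanine and glycine fill the channel and bind the transport receptors. Transmembrane nucleoporins hold the ring in the nuclear envelope, filaments on the cytoplasmic face release exported cargo, and the basket on the nuclear side meets chromatin and mRNA before export. Terminal erythroid differentiation is the last part of red cell formation, in which the erythroblast divides a few times, fills with hemoglobin, condenses its chromatin and finally expels its nucleus.

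RNA was sequenced from erythroblasts of the bone marrow of wild-type (WT) male C57BL/6 mice aged 8 weeks. The 4 groups were stages of maturation, proerythroblasts (Pro), basophilic (Baso), polychromatic (Poly) and orthochromatic (Ortho) erythroblasts, with 3 libraries each and no treatment. Cells bearing CD45 were depleted on a column, and cells stained for CD45, CD11b or GR1, which mark white blood cells, were gated out. Pro cells were gated as high in CD44 and low in Ter119, and the later stages by CD44 against cell size among Ter119+ cells, so that a stage is a gate and not a purified cell type. Ortho replicates 2 and 3 carry a general erythroblast label as cell type and were placed in Ortho by their titles. The labels do not say whether the libraries of a stage came from separate mice, so p-values measure only the spread between these libraries, which may be technical. Values are FPKM, fragment numbers normalised for transcript length and library size, which can be compared between genes as levels per length. The sequencing depth is unknown, and the libraries had FPKM totals of 505624 to 691033.

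Erythroid markers summed to between 21033 and 32301 FPKM in the Pro libraries and to between 168216 and 200753 in Ortho, mostly from Hbb-bs and Hba-a1. In Ortho vs Pro 4 of these 9 genes were called higher (Hbb-bs, Hba-a1, Alas2 and Slc4a1) and 3 lower (Gata1, Klf1 and Epor). Of all 12994 genes tested, 823 were called higher and 3092 (23.8%) lower in this comparison, to which the counts of calls below also belong. Markers of other bone marrow cells were also present and moved with the stage. The 12 neutrophil markers summed to between 7779 and 9490 FPKM in Pro and between 15068 and 18766 in Ortho, with 5 of 12 called higher, and the 10 B cell markers to between 169 and 275 in Pro and between 502 and 546 in Ortho, with 8 of 10 called higher. The 9 macrophage markers reached 62.4 to 74.0 FPKM in Ortho against 29.4 to 35.2 in Pro, with Mrc1, Siglec1, C1qb and C1qc under 1 in all libraries. The 9 T and NK cell markers reached at most 42.6 in any library, with Cd3d, Cd3e, Cd3g, Cd8a, Ncr1 and Trac under 1 throughout. Megakaryocyte and platelet markers fell from 71.7 to 130 FPKM in Pro to between 38.3 and 47.5 in Ortho, with 5 of 8 called lower. The part of these cells in the nucleoporin values below was not tested.

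Promoter sequences are shown for 6 members whose falls lay at different steps of maturation, as described further on. They are taken from RefSeq (GRCm38.p6) and run from 250 bases before to 50 bases after the start of transcription, 5′ to 3′ on the strand of the gene. Nup54 (chr5:92435150-92435449, minus strand) and Nup93 (chr8:94214314-94214613, plus strand) had their larger fall between Pro and Baso, as did Nup107 (chr10:117792656-117792955, minus strand). Ahctf1 (chr1:179803966-179804265, minus strand), Nup210 (chr6:91116777-91117076, minus strand) and Nup50 (chr15:84923178-84923477, plus strand) had theirs between Poly and Ortho. The Nup93 promoter is the first of 2 in the table. Capitals mark matches on either strand to CCAAT (the NF-Y box), GCATGCGC (NRF1), TTTCCCGC or TTTGGCGC (E2F), AGATAA (bound by GATA factors) or, for the E-box, CACGTG.
Nup54: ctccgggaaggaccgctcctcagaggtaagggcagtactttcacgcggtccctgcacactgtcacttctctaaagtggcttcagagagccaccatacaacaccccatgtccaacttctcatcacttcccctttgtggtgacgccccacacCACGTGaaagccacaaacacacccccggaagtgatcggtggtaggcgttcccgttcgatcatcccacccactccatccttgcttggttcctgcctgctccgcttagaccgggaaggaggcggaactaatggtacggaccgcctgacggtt
Nup93: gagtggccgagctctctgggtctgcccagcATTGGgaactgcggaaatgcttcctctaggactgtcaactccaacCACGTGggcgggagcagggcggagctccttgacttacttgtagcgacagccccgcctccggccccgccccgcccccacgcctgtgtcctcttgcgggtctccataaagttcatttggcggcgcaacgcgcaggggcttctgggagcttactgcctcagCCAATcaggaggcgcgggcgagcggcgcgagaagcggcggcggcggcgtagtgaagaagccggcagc
Nup107: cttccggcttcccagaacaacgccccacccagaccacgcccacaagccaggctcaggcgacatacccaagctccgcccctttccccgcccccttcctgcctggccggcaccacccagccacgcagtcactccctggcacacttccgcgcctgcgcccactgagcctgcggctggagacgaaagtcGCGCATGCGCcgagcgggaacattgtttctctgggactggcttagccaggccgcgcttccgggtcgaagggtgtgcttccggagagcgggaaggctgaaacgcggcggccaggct
Ahctf1: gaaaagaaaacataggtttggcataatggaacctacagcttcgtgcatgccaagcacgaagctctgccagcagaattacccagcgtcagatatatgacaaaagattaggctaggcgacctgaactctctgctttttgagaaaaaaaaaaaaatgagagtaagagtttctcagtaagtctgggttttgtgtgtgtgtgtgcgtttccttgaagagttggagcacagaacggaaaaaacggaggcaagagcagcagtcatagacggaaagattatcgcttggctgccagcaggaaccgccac
Nup210: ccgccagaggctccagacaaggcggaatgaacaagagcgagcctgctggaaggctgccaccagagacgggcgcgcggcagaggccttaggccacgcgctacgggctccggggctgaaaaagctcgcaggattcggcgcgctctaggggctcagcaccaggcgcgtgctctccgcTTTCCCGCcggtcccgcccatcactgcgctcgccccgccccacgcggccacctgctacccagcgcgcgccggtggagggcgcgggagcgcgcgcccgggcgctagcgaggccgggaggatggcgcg
Nup50: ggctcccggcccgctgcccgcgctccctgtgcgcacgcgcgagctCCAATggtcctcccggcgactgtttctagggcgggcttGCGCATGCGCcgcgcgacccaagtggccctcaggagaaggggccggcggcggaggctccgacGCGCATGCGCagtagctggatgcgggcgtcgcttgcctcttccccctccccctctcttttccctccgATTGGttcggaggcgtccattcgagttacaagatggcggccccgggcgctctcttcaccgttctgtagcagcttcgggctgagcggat

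Promoters were found for 26 of the 30 genes, 29 promoters in all, and not for Nup35, Nup43, Nup85 and Seh1l. The NRF1 letters were in 4 of the 29 promoters (13.8%), those of Nup50, Nup62, Nup107 and Nupl1, against 2.71% of all 32851 promoters in the table and 5.37% of the 11294 promoters of tested genes. In Nup107 and Nup50 above, the match lies in a run that reads the same on both strands, and Nup50 holds 2 such runs. The NF-Y box was in 12 of 29 (41.4%), close to the 38.3% of the promoters of tested genes. The E-box was in 4 (13.8%, against 10.2%), in Nup54, Nup93, Nup188 and Ranbp2. E2F letters were in 1 promoter, of Nup210 (3.45%, against 3.01%), and GATA letters in 1, of Sec13 (3.45%, against 6.81%). The median GC content of the members' promoters was 63.7% (range 40.3 to 74.7), and that of all promoters 52.7%. The Ahctf1 promoter printed above had no match to any of these motifs. Its window follows the RefSeq start and lies outside the gene as annotated by GENCODE M21, whose 5′ end is at 179803680. Bases around that other start were not searched. The motif counts above are matches of letters in a window of 300 bases and no evidence of binding.

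Nucleoporin transcripts fell as erythroblasts matured. The 30 members summed to 1118 ± 35.5 FPKM in Pro (SD, n = 3) and 753 ± 23.9 in Baso, and to 704 ± 7.43 in Poly and 483 ± 10.7 in Ortho, and the libraries of the 4 stages did not overlap. As a share of the FPKM of the library, they made up 0.216% ± 0.0102 in Pro and 0.128% ± 0.00628 in Baso, followed by 0.120% ± 0.00187 in Poly and 0.0722% ± 0.00339 in Ortho. An FPKM depends on what else the library holds, and hemoglobin transcripts rose over the same stages. With the hemoglobin genes taken out of the library sums, the share was 0.236% ± 0.00737 in Pro and 0.198% ± 0.00434 in Baso, followed by 0.189% ± 0.00304 in Poly and 0.143% ± 0.00298 in Ortho. In bulk samples, fewer cells of a type and less RNA per cell cannot be told apart.

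**Figure D1:**
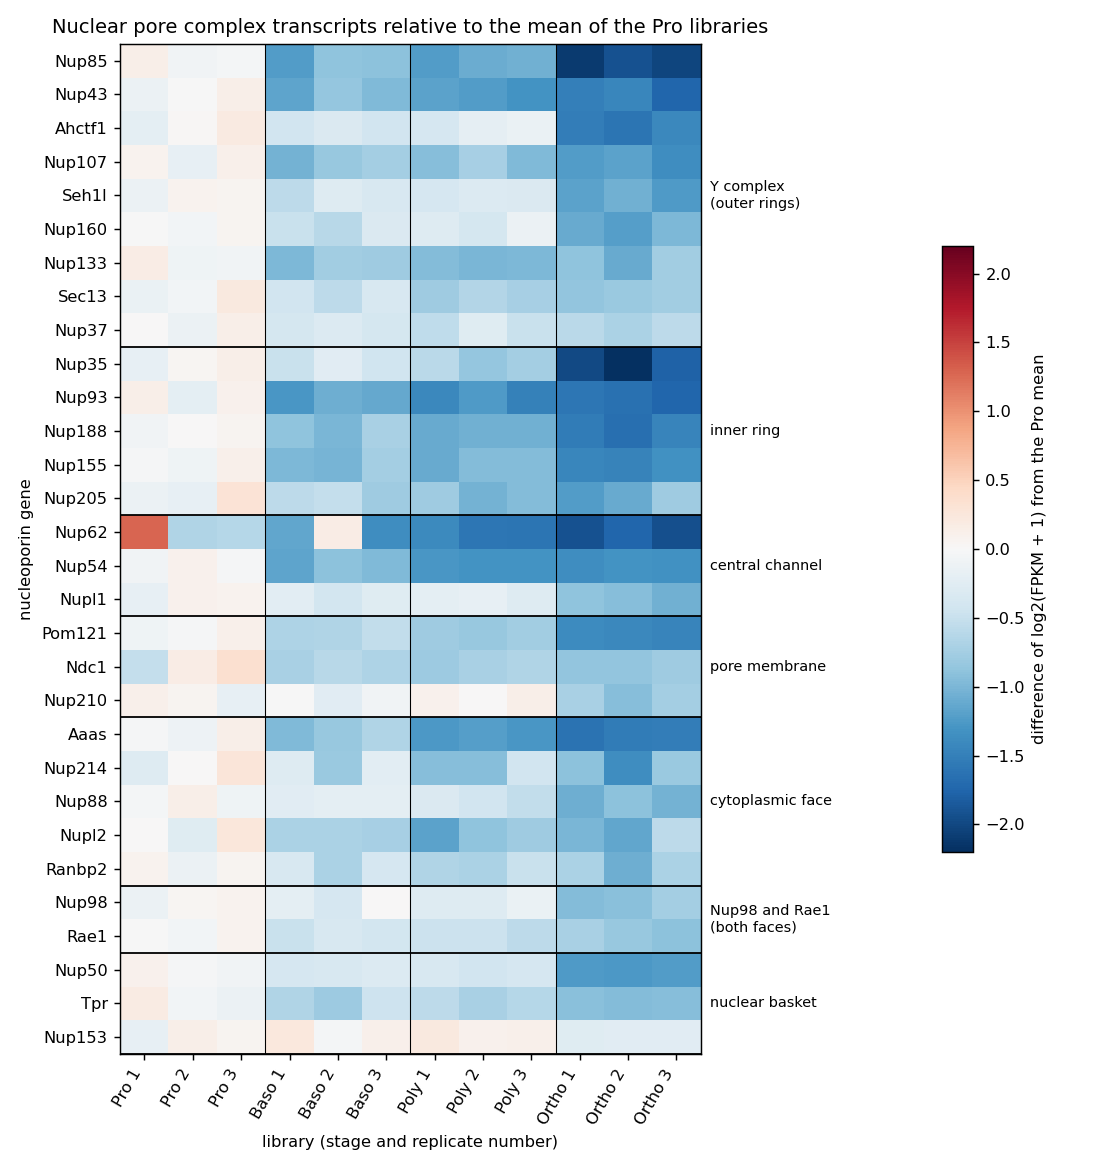
Each row is a nucleoporin gene, grouped by its place in the pore, and each column a library. Colour gives the difference of log2(FPKM + 1) from the mean of the Pro libraries, blue for lower and red for higher. The Ortho columns are the darkest blue for most genes, Nup85 and Nup35 reach the largest differences, Nup153 stays pale in all stages, and Nup62 is uneven among the Pro and Baso libraries.

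Between the ends of the series, Ortho vs Pro, 18 of the 30 members were called lower and none higher, a call being an adjusted p under 0.05 in limma together with a log2 fold change of 1 or more in size. Of all genes tested, 23.8% were called lower. The median log2 fold change of the members was -1.07 (range -2.01 to -0.25), and that of all genes -0.42, so that the members' median lay 0.65 below it and 29 of 30 members were below it. By the adjusted p alone all 30 were lower, against 53.2% of all genes, and in all 30 the 3 Ortho libraries lay below the 3 Pro libraries, as in 53.6% of all genes. The count depended on the scaling. Rescaling the libraries without the hemoglobin genes moved the median of all genes to -0.03 and that of the members to -0.61, with 8 members and 8.87% of all genes called lower. In that scaling 63.4% of the calls among all genes were higher, against 21.0% as deposited. Rescaling to the same sum moved the medians to -0.72 and -1.42, with 28 members and 37.4% of all genes called lower.

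**Figure D2:**
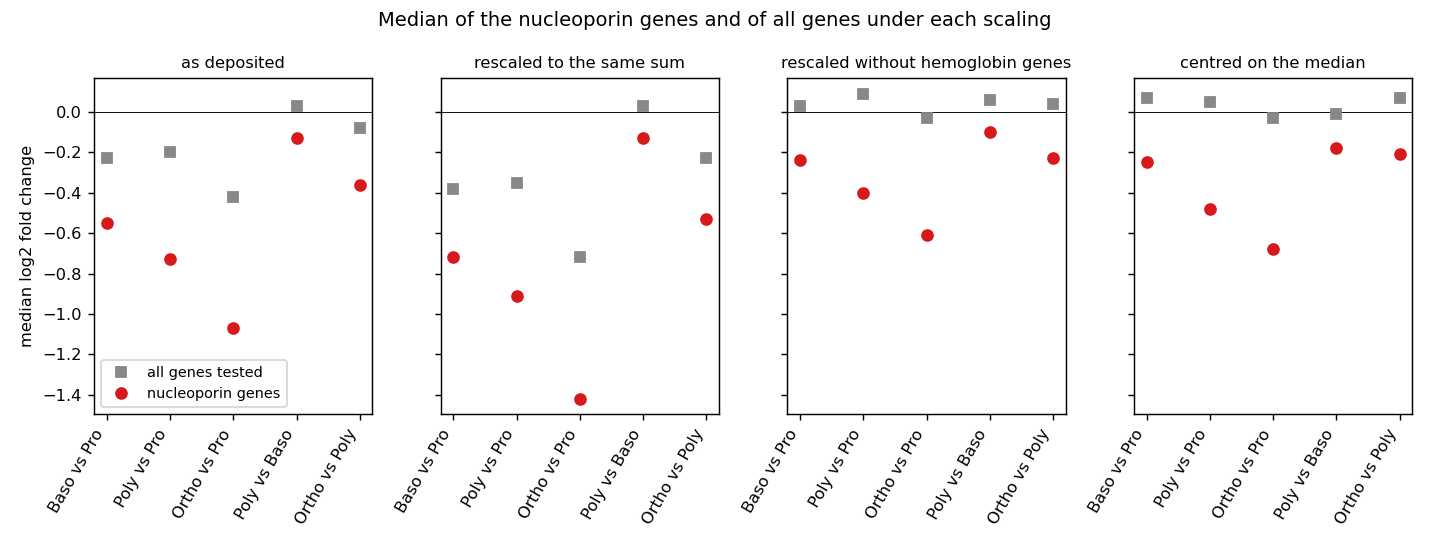
Median log2 fold change (vertical axis) of the 30 nucleoporin genes (red circles) and of all 12994 genes tested (grey squares) in 5 comparisons of stages, with a panel for each scaling of the libraries. The red circles lie below the grey squares in every panel, by 0.65 in Ortho vs Pro as deposited, while the grey squares themselves move with the scaling.

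The Y complex, the scaffold of the outer rings, had 6 of 9 members called lower in Ortho vs Pro, with a median log2 fold change of -1.16. Nup85 (chr11:115564434-115583985, plus strand, mm10), a Y complex subunit and the most abundant nucleoporin transcript of Pro, had 136, 117 and 120 FPKM in the Pro libraries, 52.4, 66.8 and 66.2 in Baso, 52.4, 57.5 and 59.3 in Poly, and 27.9, 32.2 and 29.9 in Ortho. Baso and Poly overlapped, while every Pro library was above and every Ortho library below them. Its fall from Pro to Ortho was 4.03-fold (log2 fold change -2.01 ± 0.10, standard error, adjusted p = 2.53e-08), the largest among the members, and 2.07% of all genes fell by more. Ahctf1 (chr1:179744894-179803680, minus strand), also called ELYS, which brings the Y complex to chromatin when pores are rebuilt after mitosis, had 23.1, 27.6 and 31.3 FPKM in Pro, 20.1, 21.7 and 20.0 in Baso, 20.9, 23.6 and 24.3 in Poly, and 8.85, 8.26 and 9.48 in Ortho. Poly overlapped with Pro and with Baso, and the Ortho libraries alone stood apart (log2 fold change Ortho vs Pro -1.52 ± 0.11, adjusted p = 1.91e-07).

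The other subunits of the Y complex fell by less, apart from Nup43. Nup43 went from 17.8 ± 1.71 FPKM in Pro to 5.36 ± 0.706 in Ortho (Ortho vs Pro log2 fold change -1.57), Nup107 from 42.5 ± 4.69 to 17.1 ± 1.20 (-1.26), Seh1l from 28.8 ± 2.15 to 12.3 ± 0.898 (-1.16) and Nup160 from 21.5 ± 1.02 to 9.52 ± 0.750 (-1.10). Nup133, which reaches the stem of the Y, Sec13, shared with the COPII coat of secretory vesicles, and Nup37 were lower by the adjusted p and short of the fold required. Their log2 fold changes were -0.92, -0.81 and -0.62. The core subunits of the Y complex are built into the pore in equal numbers, but their transcripts were not equal. The highest of the 9 means was 9.51 times the lowest in Pro and 7.06 times in Ortho.

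All 5 members of the inner ring were called lower, with a median log2 fold change of -1.55. Nup35 (chr2:80617236-80658906, plus strand), which touches the pore membrane, had 25.4, 29.8 and 31.8 FPKM in Pro, 20.2, 24.0 and 21.1 in Baso, 18.7, 15.6 and 16.9 in Poly, and 6.53, 5.53 and 7.66 in Ortho. The stages did not overlap, and the Ortho libraries lay furthest from their neighbours (Ortho vs Pro log2 fold change -1.99 ± 0.12, adjusted p = 6.78e-08). Nup93 (chr8:94214564-94317227, plus strand), which links the ring to the channel nucleoporins, had 46.4, 36.3 and 45.2 FPKM in Pro, 16.9, 19.6 and 18.8 in Baso, 15.3, 17.2 and 14.5 in Poly, and 13.4, 12.9 and 11.9 in Ortho. The gap lay between Pro and the other stages (Ortho vs Pro log2 fold change -1.66 ± 0.11, adjusted p = 8.95e-08). The large scaffold proteins of the ring followed, with Nup188 at 32.8 ± 1.51 FPKM in Pro and 10.5 ± 0.781 in Ortho (-1.55), Nup155 at 18.0 ± 1.29 and 6.12 ± 0.376 (-1.41), and Nup205 at 33.1 ± 6.66 and 15.5 ± 2.68 (-1.04). The call of Nup205 was lost without Pro replicate 3 (-0.89) or Ortho replicate 1 (-0.95).

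Of the central channel nucleoporins, which carry the phenylalanine and glycine stretches that bind transport receptors, Nup54 and Nup62 were called lower and Nupl1 was not. Nup54 (chr5:92415540-92435219, minus strand) had 32.4, 36.6 and 33.5 FPKM in Pro, 14.7, 17.9 and 16.9 in Baso, 13.5, 13.1 and 13.2 in Poly, and 12.7, 13.1 and 13.0 in Ortho. Every Pro library was well above every library of the other stages (Ortho vs Pro log2 fold change -1.33 ± 0.08, adjusted p = 6.78e-08). Nupl1, the partner of Nup54 and Nup62 also named Nup58, went from 31.6 ± 3.29 FPKM in Pro to 15.8 ± 0.983 in Ortho (-0.96, adjusted p = 1.63e-06) and was called without Pro replicate 1 (-1.04). The values are those of the identifier ENSMUSG00000114797, which GENCODE M21 names Gm49336 and which shares 1756 exonic bases with the second Nupl1 identifier, so the split of reads between them is uncertain.

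Nup62 (chr7:44816088-44830812, plus strand) differed most between libraries of a stage. It had 60.5, 15.0 and 15.4 FPKM in Pro, 10.5, 27.4 and 8.81 in Baso, 8.58, 7.35 and 7.27 in Poly, and 5.71, 6.51 and 5.65 in Ortho. Pro replicate 1 and Baso replicate 2 were high, and the Poly and Ortho libraries were close together. Its exons share 97 bases with Il4i1 on the same strand and 82 bases with Atf5 on the opposite strand, and the part of reads from these genes was not tested. Ortho vs Pro gave a log2 fold change of -1.86 ± 0.48 (adjusted p = 0.00414), and of -1.22 (adjusted p = 0.00837) without Pro replicate 1, still a call. The Poly vs Pro call of Nup62 (-1.54) was lost without Pro replicate 1 (-0.90, adjusted p = 0.0428), and without Baso replicate 2 Nup62 was called lower in Baso vs Pro (-1.25, adjusted p = 0.0413).

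Among the transmembrane nucleoporins, Pom121, which takes part in the making of new pores, went from 31.6 ± 2.50 FPKM in Pro to 11.2 ± 0.313 in Ortho (Ortho vs Pro log2 fold change -1.42 ± 0.07, adjusted p = 2.73e-08). It shares 665 exonic bases with Nsun5 on the opposite strand, and whether reads were counted by strand is not stated. Ndc1, which anchors the inner ring, went from 16.8 ± 5.22 to 8.66 ± 0.343 FPKM (-0.84) and was not called, except without Pro replicate 1 (-1.10). Nup210 (chr6:91013068-91116829, minus strand), also called gp210, had 94.1, 91.2 and 76.8 FPKM in Pro, 86.0, 72.9 and 82.3 in Baso, 93.1, 87.1 and 95.8 in Poly, and 52.6, 45.2 and 51.5 in Ortho. Pro, Baso and Poly shared their range, apart from Poly and Baso, which did not overlap, and Ortho lay below all of them (Ortho vs Pro -0.80 ± 0.10, adjusted p = 1.48e-05). From Baso onwards Nup210 was the most abundant nucleoporin transcript.

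On the cytoplasmic face, 3 of 5 members were called lower in Ortho vs Pro. Aaas, which encodes aladin, had 39.4, 36.9 and 44.0 FPKM in Pro, 20.0, 22.1 and 24.9 in Baso, 16.1, 16.6 and 15.9 in Poly, and 12.3, 13.1 and 13.2 in Ortho. Each stage lay below the one before without overlap (Ortho vs Pro -1.56 ± 0.09, adjusted p = 4.59e-08). Nup214 and Nup88, partners that serve nuclear export, went from 26.8 ± 5.09 to 12.6 ± 2.63 FPKM (-1.03) and from 43.6 ± 3.62 to 21.2 ± 1.44 (-1.01). Both were near the fold required, the call of Nup214 being lost without Pro replicate 3 (-0.90) or Ortho replicate 2 (-0.86) and that of Nup88 without Pro replicate 2 (-0.94), Ortho replicate 1 (-0.97) or Ortho replicate 3 (-0.99). Ranbp2, the large filament protein that binds Ran and SUMO-modified RanGAP1, went from 36.6 ± 2.70 to 20.4 ± 3.13 FPKM (-0.82), and Nupl2, an mRNA export factor now named Nup42 and the lowest member tested, from 5.55 ± 1.16 to 2.51 ± 0.749 (-0.91). Neither was called, although Nupl2 was without Pro replicate 2 (-1.04) or Ortho replicate 3 (-1.07).

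Nup98 and Rae1 bind each other, are found on both faces and act in mRNA export. Nup98 went from 19.0 ± 1.53 FPKM in Pro to 9.94 ± 0.838 in Ortho (Ortho vs Pro log2 fold change -0.87, adjusted p = 1.69e-05) and Rae1 from 56.5 ± 2.68 to 31.7 ± 2.10 (-0.82, adjusted p = 1.07e-06), and neither was called.

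The 3 members of the nuclear basket took different courses, and 1 of them, Nup50, was called lower. Nup50 (chr15:84923411-84942963, plus strand), which helps importins release their cargo, had 49.8, 45.7 and 44.1 FPKM in Pro, 35.8, 36.3 and 37.4 in Baso, 36.2, 34.5 and 35.9 in Poly, and 19.1, 18.7 and 19.2 in Ortho. Baso and Poly overlapped, and Ortho lay far below them (Ortho vs Pro -1.25 ± 0.06, adjusted p = 2.23e-08). Tpr, the filament protein of the basket, went from 56.7 ± 6.62 to 29.0 ± 0.250 FPKM (-0.94) and was not called. Nup153 (chr13:46679905-46727940, minus strand), which ties the basket to the ring, had 29.3, 36.7 and 34.7 FPKM in Pro, 39.3, 32.5 and 36.0 in Baso, 39.1, 35.8 and 36.1 in Poly, and 27.7, 28.0 and 27.9 in Ortho. The first 3 stages overlapped, and the Ortho libraries lay just below the lowest Pro library. The Ortho vs Pro difference of Nup153 was the smallest of the members (-0.25 ± 0.09, adjusted p = 0.0273), 57.0% of all genes fell by more, and its sign turned when the libraries were rescaled without hemoglobin genes (0.23, adjusted p = 0.0490) or centred on their median (0.14, adjusted p = 0.191).

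The steps between neighbouring stages were unequal. In Baso vs Pro, Nup93 (-1.16 ± 0.11) and Nup54 (-1.01 ± 0.08) were called lower, 6.67% of the members against 8.54% of all genes, and 25 of 30 were lower by the adjusted p, against 42.1% of all genes. The median of the members was -0.55, and that of all genes -0.23. On the scale of FPKM + 1, Nup85 (0.501 times its value in Pro) and Nup43 (0.503 times) lay just short of the fold required. With a pseudocount of 0.1 in place of 1, Nup85 was called (-1.01). It was also called without Pro replicate 2, Pro replicate 3, Baso replicate 2 or Baso replicate 3 (-1.06 to -1.02). Nup98 (-0.19), Nup210 (-0.12) and Nup153 (0.10) had the smallest changes and an adjusted p above 0.05. The signs of Nup98 and Nup210 turned without hemoglobin genes (0.11 and 0.20), and that of Nup153 with libraries of the same sum (-0.08). The 2 calls were 1 without Baso replicate 1, 5 without Baso replicate 2, 5 without Baso replicate 3 and 0 when rescaled without hemoglobin genes. Of all genes, 7.17%, 9.66%, 9.27% and 3.24% were called lower under these settings. The call of Nup54 was also lost without Pro replicate 2 (-0.96).

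By Poly, 8 members were called lower than in Pro, where 12.8% of all genes were. They were Nup62 (-1.54), Nup93 (-1.38), Nup54 (-1.30), Aaas (-1.25), Nup43 (-1.24), Nup85 (-1.12), Nup188 (-1.07) and Nup155 (-1.01). The call of Nup155 was lost without Pro replicate 3 (-0.96) or Poly replicate 1 (-0.95). The adjusted p alone was passed by 26 members, all lower, against 42.7% of all genes. Nup153 (0.14) and Nup210 (0.08) were at about their level in Pro, with adjusted p of 0.198 and 0.493 and a sign that turned with libraries of the same sum, and Nupl1 (-0.22, adjusted p = 0.0442) had the third smallest change, whose sign turned without hemoglobin genes (0.12) and with centring on the median (0.03).

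Poly and Baso were close. None of the members was called in limma, where 0.454% of all genes were called lower. At an unadjusted p under 0.05 there were 8 members, all lower in Poly. The share of all genes at that threshold was not computed, so no trend is read from this count. By the adjusted p 2 of 30 were lower, Aaas (-0.43 ± 0.09, adjusted p = 0.0138) and Nup54 (-0.29), against 5.77% of all genes. The members' median was -0.13 and that of all genes 0.03. In a fit of the last 3 stages that took same-numbered libraries as a block, 5 members passed the adjusted p, Aaas, Nup54 and Sec13 lower in Poly and Nup160 (0.20) and Nup210 (0.19) higher. In the same fit 1226 of the 12994 genes tested were lower by the adjusted p and 1637 higher. Nup62 (-0.76) and Nup35 (-0.33) had low values with adjusted p of 0.326 and 0.0943, and Ahctf1 (0.15) a high value with an adjusted p of 0.389.

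From Poly to Ortho, Ahctf1 (-1.28 ± 0.11) and Nup35 (-1.26 ± 0.12) were called lower, 6.67% of the members against 4.81% of all genes. By the adjusted p alone 17 of 30 were lower, against 21.7% of all genes, with a median of -0.36 for the members and -0.08 for all genes. Nup85 (-0.89) and Nup210 (-0.88) came next. At the other end, Nup133 (0.07), Nupl2 (0.04) and Nup54 (-0.04) were at about their level in Poly, with adjusted p of 0.738, 0.906 and 0.819, and the signs of Nup133 and Nupl2 turned with libraries of the same sum (-0.11 and -0.09) and that of Nup54 without hemoglobin genes (0.10).

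Whether a member fell more at the first or at the last step was tested in the same model, as the change from Pro to Baso minus the change from Poly to Ortho, a comparison chosen after the values had been seen. The steps differed, at an adjusted p under 0.05, in 18 of the 30 members. Of these, 9 members fell at the first step and by more than at the last, as did 24.6% of all genes, and 9 fell at the last step and by more than at the first, as did 14.2% of all genes. The early group held Nup54 (difference of log2 fold changes -0.97), Nup133 (-0.91), Nup93 (-0.88), Nupl2 (-0.75), Nup43 (-0.67), Nup155 (-0.51), Aaas (-0.51), Nup107 (-0.49) and Nup188 (-0.39). The late group held Ahctf1 (0.89), Nup35 (0.86), Nup210 (0.76), Nup50 (0.53), Nup153 (0.49), Nup98 (0.45), Nupl1 (0.43), Seh1l (0.43) and Nup88 (0.35). The threshold was passed under all 22 alternative settings by 5 of the early members (Nup54, Nup133, Nup93, Nup43 and Aaas) and 6 of the late members (Ahctf1, Nup35, Nup210, Nup50, Nup153 and Nupl1). Nup107 passed it under 13 of the 22. Rescaling without hemoglobin genes left 5 early and 10 late members, against 17.3% and 16.0% of all genes. In both scalings the early course was thus about as common among the 30 members as among all genes.

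Nup54 and Nup93 show the early course. Of the fall of Nup54 from Pro to Ortho on the log2 scale, 75.6% lay between Pro and Baso and 2.72% between Poly and Ortho (difference of the steps -0.97 ± 0.12, adjusted p = 6.33e-05), and for Nup93 the shares were 70.0% and 16.7% (-0.88 ± 0.15, adjusted p = 0.000714). Ahctf1 and Nup50 show the late course. Between Poly and Ortho lay 84.4% of the fall of Ahctf1 (difference 0.89 ± 0.15, adjusted p = 0.000721) and 69.8% of that of Nup50 (0.53 ± 0.09, adjusted p = 0.000727). Nup85 and Pom121 fell by similar amounts at both steps, 49.6% and 44.2% of its whole log2 fall for Nup85 (adjusted p of the difference 0.590) and -0.62 at each step for Pom121 (0.999).

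The early and late members did not follow the subcomplexes. The Y complex held Nup133, Nup43 and Nup107 among the early and Ahctf1 and Seh1l among the late members, the inner ring Nup93, Nup155 and Nup188 among the early and Nup35 among the late, and the central channel Nup54 among the early and Nupl1 among the late. All basket members that passed the threshold, Nup50 and Nup153, were late, with Tpr (-0.35, adjusted p = 0.0711) not passing it. The promoters of the early group held an E-box in 3 of the 8 genes with a promoter and those of the late group in 0 of 7, while the NF-Y box was in 3 genes of each group and the NRF1 letters in 1 early and 2 late genes. Among promoters of tested genes the shares were 10.2%, 38.3% and 5.37%. The E-box genes were Nup54, Nup93 and Nup188, and Nup188 passed the step threshold under only 16 of 22 alternative settings. The groups were made from these same values, and a link of motifs to the steps was not tested.

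**Figure D3:**
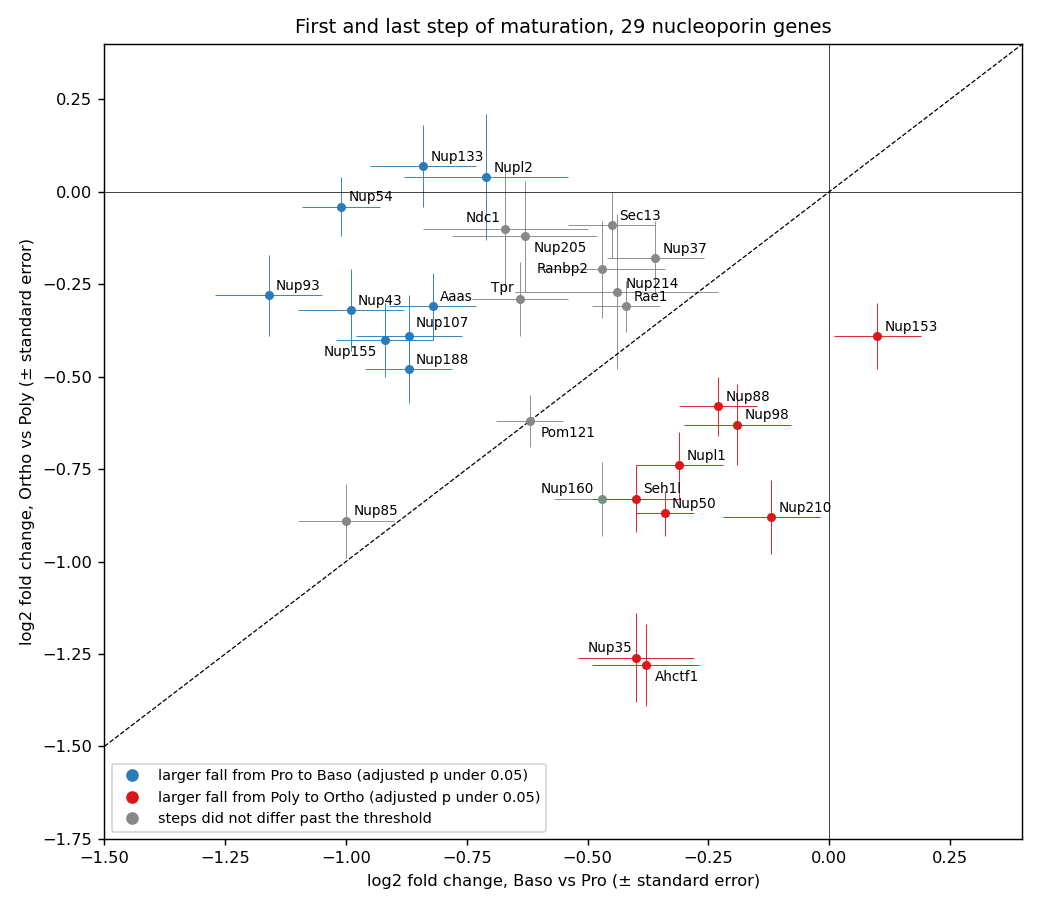
Log2 fold change of each nucleoporin gene from Pro to Baso (horizontal axis) and from Poly to Ortho (vertical axis), with bars of ± standard error and the dashed line marking equal changes. Blue genes fell more at the first step and red genes at the last. Nup54 and Nup133 lie at the upper left, near 0 on the vertical axis, and Ahctf1 and Nup35 at the bottom. Nup62 is left out because its libraries differ within Pro and Baso.

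**Figure D4:**
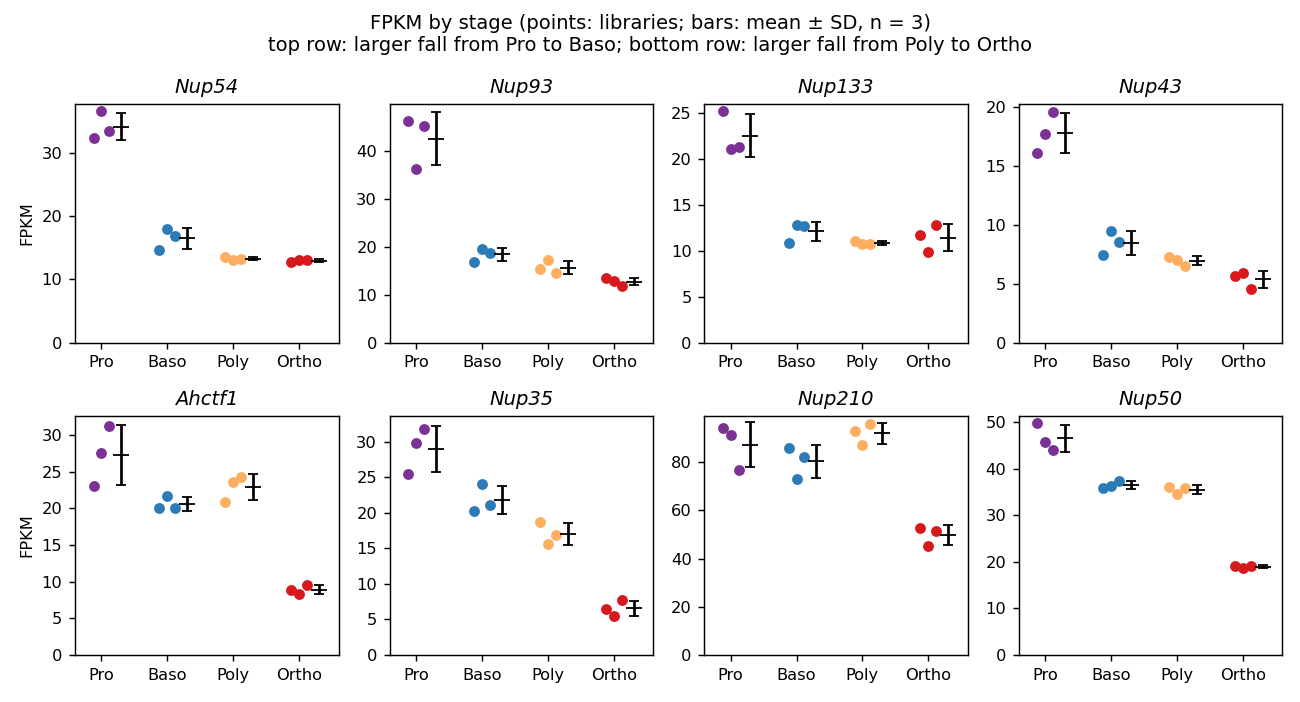
FPKM (vertical axis, from 0) of 8 nucleoporin genes in the libraries of each stage (points), with the mean ± SD of 3 libraries (black bars). Genes of the top row have their largest drop from Pro to Baso and smaller changes after it, with Nup43 and Nup93 still falling. Genes of the bottom row have their largest drop from Poly to Ortho, and Nup35 also falls at each earlier step.

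Since the members fell by unequal amounts, the make-up of the nucleoporin transcripts changed. Shares of the summed nucleoporin FPKM within a library do not depend on its scaling. Nup85 made up 11.1% ± 0.747 of the sum in Pro and 8.21% ± 0.928 in Baso, then 8.02% ± 0.466 in Poly and 6.21% ± 0.558 in Ortho. Nup210 made up 7.83% ± 0.948 in Pro and 10.7% ± 0.999 in Baso, then 13.1% ± 0.524 in Poly and 10.3% ± 0.646 in Ortho, and had the highest share of all members in each stage after Pro. Nup153 went from 3.01% ± 0.418 to 5.77% ± 0.145, the largest relative gain, and Nup35 from 2.60% ± 0.315 to 1.36% ± 0.191. In none of these 4 genes did the range of the Ortho libraries overlap with that of Pro. A higher share of Nup153 in Ortho is a smaller fall than that of the other members and not a rise of its FPKM.

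By subcomplex, the inner ring went from 13.9% ± 0.983 of the sum in Pro to 10.6% ± 0.599 in Ortho and the Y complex from 32.7% ± 0.756 to 29.1% ± 0.895. Nup85 alone, from 11.1% to 6.21%, lost more percentage points than the Y complex as a whole. Its other subunits moved both ways, such as Sec13 from 6.05% to 7.83% and Ahctf1 from 2.45% to 1.83%. The nuclear basket went from 12.2% ± 0.678 to 15.7% ± 0.299, Nup98 with Rae1 from 6.76% ± 0.265 to 8.61% ± 0.344, and the transmembrane nucleoporins from 12.2% ± 0.765 to 14.4% ± 0.607 with a peak of 16.9% ± 0.573 in Poly. The cytoplasmic face stood at 13.7% ± 0.625 and 14.4% ± 0.712, a difference close to the spread of the libraries.

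**Figure D5:**
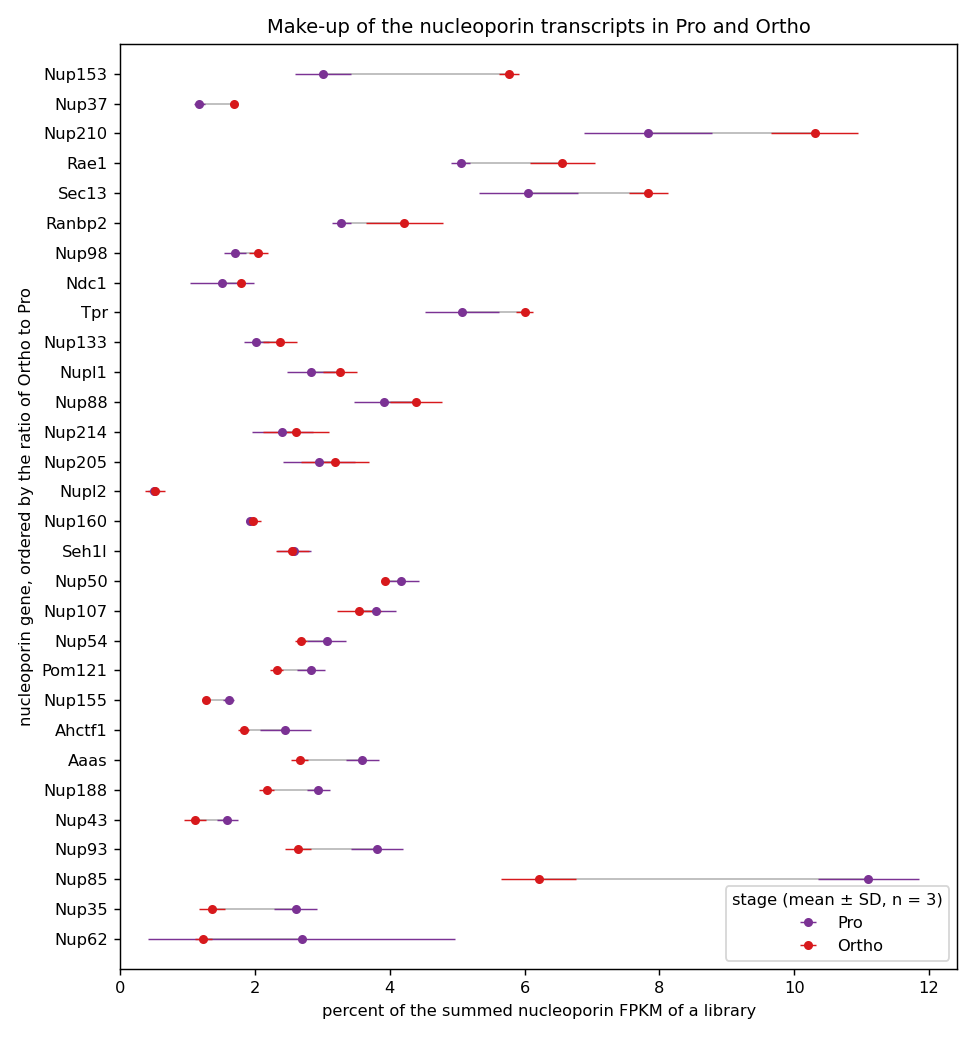
Share of each nucleoporin gene in the summed nucleoporin FPKM of a library (horizontal axis, percent) in Pro (purple) and Ortho (red), mean ± SD of 3 libraries, ordered by the ratio of Ortho to Pro. Nup153 gains most in relative terms, Nup85 loses the most percentage points, from 11.1% to 6.21%, and the wide bar of Nup62 in Pro comes from Pro replicate 1.

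Genes that work with the pore were read from lists of the same kind. All 7 genes of the Ran cycle, which sets the direction of transport, were called lower in Ortho vs Pro, with a median log2 fold change of -1.58. Among all 12994 genes tested, 3092 (23.8%) were called lower in that comparison and 823 higher. Ran went from 324 ± 53.2 FPKM in Pro to 101 ± 3.10 in Ortho, Nutf2, the import factor of Ran, had the largest fall (-1.94) and Rcc1, its exchange factor on chromatin, the next (-1.69). Of 17 genes of mRNA export, 10 were called lower and none higher, led by Eny2 (-1.80), of the complex that couples transcription to export, and the helicase Ddx39 (-1.69). Of 23 transport receptors, 15 were called lower, led by Kpna2 (-1.62) and Ipo5 (-1.57), and 1 higher, Xpo7, a receptor known for its rise in maturing erythroblasts, which went from 22.0 ± 6.90 to 948 ± 11.7 FPKM (5.41). Of 9 other pore and pore-associated genes 5 were tested and 3 called lower, Zc3hc1, a basket-associated protein (-1.34), Mad1l1, a checkpoint protein bound to the basket (-1.23), and Senp2 (-1.08), a SUMO protease found at the pore. Rescaled without hemoglobin genes, 4 genes of the Ran cycle, 2 of mRNA export, 3 transport receptors and none of the other pore genes were called in either direction. In that scaling 1997 of the 12994 genes tested were called higher and 1153 lower.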

How the data were processed

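RNA sequencing of 12 libraries of sorted mouse erythroblasts was analysed, 3 for each of 4 stages. The sample labels gave the stage and replicate number of each library. Per the submitters' processing notes and the methods, the authors used cutadapt and Trimmomatic to clean the reads, aligned them to mm10 with HISAT2, counted them with SAMtools and featureCounts and tested counts with DESeq2. The authors deposited FPKM values, 1 per gene and library. The tool that made the FPKM, the annotation release, the strand setting and the versions are not given in the sources used here. The labels name Trizol extraction and NEBNext Ultra libraries, the methods Geek lysis and KAPA Hyper Prep kits.

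FPKM are not counts, so genes were tested with limma (version 3.58.1, under R 4.3.3), which was given log2(FPKM + 1), a variance trend and all libraries in 1 model. Fold changes are on this scale, which understates the change of low genes. Of 29838 genes (1 repeated identifier was removed), 12994 reached 1 FPKM in 3 or more libraries and were tested. Tests were two-sided, p-values were corrected over all genes tested after Benjamini and Hochberg, and calls were made at an adjusted p under 0.05 with a log2 fold change of 1 or more in size. In 950 low genes the log2 ratios between libraries showed no steps of whole fragments (3.4% in the most common bin), so the depth is unknown and the precision is that of the 3 libraries. The model was tested on simulated data.

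The members and gene lists were chosen with earlier results of these data known. Every member was named. In comparisons other than Ortho vs Pro, the members called and the 3 highest and 3 lowest log2 fold changes were named, and from each other list up to 2 called genes with the largest rise and fall. The difference between the first and last step was added after the data were seen. Correlations of the deviations of same-numbered libraries from their stage means were 0.182 to 0.238 for Baso with Poly, 0.156 to 0.264 for Baso with Ortho and 0.156 to 0.319 for Poly with Ortho. With Pro they were 0.00524 to 0.0968. Correlations of libraries with different numbers were not computed, so whether the numbers pair Baso, Poly and Ortho is not settled. The main fit took no block, and fits with a block are given further on.

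Alternatives were other pseudocounts, filters and scalings, no variance trend, a block for the replicate number, calls by the adjusted p alone, and fits without single libraries. Gene positions on mm10 and shared exonic bases are from GENCODE M21, and promoters from RefSeq on GRCm38.p6. Protein sequences were not analysed here.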

Additional observations from a re-analysis of the deposited data

How the results depend on the processing

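The 18 Ortho vs Pro calls became 28 with libraries rescaled to the same sum, 8 without hemoglobin genes, 10 with centring on the median and 30 with the adjusted p alone, while the share of all genes called lower went from 23.8% to 37.4%, 8.87% and 9.95% under the 3 scalings. The median of -1.07 became -1.42, -0.61 and -0.68 under these scalings and -1.15 and -0.89 with pseudocounts of 0.1 and 5. The calls with these pseudocounts were 19 and 13, while 29.9% and 13.4% of all genes were called lower. For Baso vs Pro, the 2 calls became 4 and 1 with these pseudocounts, 8, 0 and 0 under the scalings and 25 with the adjusted p alone, while the share of all genes went from 8.54% to 12.4% and 3.49%, and to 14.0%, 3.24% and 3.15%. The median of -0.55 became -0.42 with a pseudocount of 5, -0.47 with a mean FPKM of at least 5, and -0.72, -0.24 and -0.25 under the scalings. For Poly vs Pro, the 8 calls became 10 and 5 with these pseudocounts, 12, 2 and 4 under the scalings and 26 with the adjusted p alone. The share of all genes went from 12.8% to 17.0% and 6.73%, and to 18.6%, 5.71% and 7.12%. The median of -0.73 became -0.61 with a pseudocount of 5, -0.91, -0.40 and -0.48 under the scalings and -0.83 without Pro replicate 1 and Baso replicate 2 together, a setting chosen after seeing the data. The adjusted p alone gave 2 members in Poly vs Baso. For Ortho vs Poly, the 2 calls became 1 with a pseudocount of 5, 7 with libraries of the same sum and 17 with the adjusted p alone, and the share of all genes went from 4.81% to 2.76% and 6.86%. The median of -0.36 became -0.27 with a pseudocount of 5 and -0.53, -0.23 and -0.21 under the scalings. FPKM without depth limits all of these to the spread of 3 libraries. The cause of these changes was not tested.

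Leaving out 1 library at a time gave 16 to 20 calls and a median of -1.14 to -1.05 in Ortho vs Pro. Of the 12810 to 12951 genes tested in these fits, 2970 to 3205 were called lower. Baso vs Pro had 1 to 5 calls and a median of -0.56 to -0.46, with 928 to 1310 of all genes called lower. Poly vs Pro had 7 to 11 calls and -0.83 to -0.65, with 1588 to 1836 of all genes. There were 0 calls in Poly vs Baso and 2 in Ortho vs Poly, with 40 to 69 and 610 to 650 of all genes. A step difference was found in 14 to 20 members. Across these fits 21.6% to 24.6% of all genes were early and 12.6% to 14.5% late. In the other lists in Ortho vs Pro, calls became 4 for the Ran cycle, 2 for mRNA export, 3 for transport receptors and 0 for other pore genes without hemoglobin genes, 5, 4 and 0 for the last 3 with centring, 7 transport receptors and 0 other pore genes with a pseudocount of 5, and 5 other pore genes with libraries of the same sum. Of the 12994 genes tested, 1997 were called higher and 1153 lower without hemoglobin genes, and 2078 and 1293 with centring. The counts were 350 and 1738 with a pseudocount of 5, and 321 and 4857 with libraries of the same sum.

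Signs turned for members near 0. With libraries of the same sum they did for Nup153 (Baso vs Pro -0.08, Poly vs Pro -0.03), Nup210 (Poly vs Pro -0.10), Nup133 (Ortho vs Poly -0.11) and Nupl2 (Ortho vs Poly -0.09). Without hemoglobin genes and with centring they did for Nup153 (Ortho vs Pro 0.23 and 0.14), Nup210 (Baso vs Pro 0.20 and 0.18), Nup98 (Baso vs Pro 0.11 and 0.11), Nupl1 (Poly vs Pro 0.12 and 0.03) and Nup54 (Ortho vs Poly 0.10 and 0.11). Nup210 also turned in Baso vs Pro without Pro replicate 1 and Baso replicate 2 together (0.01) and in Poly vs Pro without Pro replicate 3 (-0.01, range of the fits without a library -0.01 to 0.13), Nup133 in Ortho vs Poly without Ortho replicate 3 (-0.01, range to 0.16), and Nupl2 in Ortho vs Poly without Poly replicate 1 (-0.07) or Ortho replicate 3 (-0.12, range to 0.16).

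With a replicate block over all libraries, the counts of members called were 18, 2, 8, 0 and 2 in Ortho vs Pro, Baso vs Pro, Poly vs Pro, Poly vs Baso and Ortho vs Poly, the same as without it. Of all genes, 23.8%, 8.58%, 12.8%, 0.446% and 4.79% were called lower. A step difference was found in 20 members against 18, 10 of them early and 10 late, as in 25.3% and 14.9% of all genes. In the blocked model of Baso, Poly and Ortho alone, 2 members were called in Ortho vs Poly and 19 passed the adjusted p, against 17. Of the 12994 genes tested, 4.83% were called lower in that model and 3182 were lower by the adjusted p, against 2822 in the main model. The block changed no count of members called.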
